A study of Caenorhabditis elegans with 2 samples.

Results

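The 8 genes described here encode the cell-cell junction proteins of Caenorhabditis elegans epithelia: hmr-1, hmp-2, hmp-1 and jac-1 of the cadherin-catenin complex, dlg-1 and ajm-1 of the DLG-1/AJM-1 complex, and the junction-associated genes let-413 and vab-9. They were chosen by name, as 8 of 19973 nuclear protein-coding genes, and every region whose summit fell in a gene's body or in the 5000 bp before its start was taken. The regions came from ChIP-seq (chromatin immunoprecipitation with sequencing) of BLMP-1, a zinc finger transcription factor related to vertebrate PRDM1, carrying an eGFP tag. The only group comprised 2 biological replicates of whole mixed-stage embryos of strain OP109, genotype unc-119(ed3) III; wgIs109, where wgIs109 is the integrated tagged blmp-1 transgene. Sexes were pooled, the age was unknown, and both samples carried the transgene and the unc-119 mutation, so there was no comparison between genotypes. The labels do not give the sequences that drive the transgene, and a possible control experiment they list was not analysed here. A whole-embryo region does not show in which cells the factor was bound.

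In nematode epithelia a single electron-dense apical junction seals neighbouring cells and anchors the actin cytoskeleton. Its cadherin-catenin complex links cells to actin through the classical cadherin and the catenins, and the more basal DLG-1/AJM-1 complex maintains the integrity of the junction. LET-413 helps to place both complexes apically, and the junctions carry the forces that elongate the embryo. BLMP-1 is known for roles in epidermal development and in developmental timing.

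BLMP-1 regions that entered the authors' optimal list lay at 4 of the 8 genes: hmp-2 among the catenins, dlg-1 and ajm-1 of the other complex, and vab-9. The optimal list, made by the irreproducible discovery rate (IDR) procedure, holds 843 regions called IDR peaks here, and 5 of them had their summit at these genes, with 2 at ajm-1. None lay at the cadherin gene hmr-1 or at hmp-1, jac-1 and let-413. Among all protein-coding genes 6.22% had an IDR summit in a window drawn by the same rule. The longer candidate list from the pooled replicates holds 30000 regions, and 99 of these had a summit at the junction genes, at all 8 of them. Of all protein-coding genes, 78.5% had such a candidate, so its presence sets no member apart. The candidate lists of replicate 1 and replicate 2, also 30000 each, placed 92 and 70 summits at the 8 genes.

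Each region carries the authors' signal value, a score of strength whose scale the files do not state, so signal values are set side by side only within a list, and ranks within a list are given beside them. The IDR list takes the strongest pooled candidates, down to a signal of 46.1, so a place in it is a statement about pooled signal. Depth is unknown because the files give no read counts. The pooled and IDR lists derive from both replicates, so a single replicate is not independent of them. The 843 strongest candidates of replicate 1 had summits at 4 of the 8 genes, the same genes as the IDR list, against 5.95% of all protein-coding genes. The 843 strongest of replicate 2 had summits at 5 of the 8, against 6.33% of all, and the added gene was let-413. No test was made of any of these counts, since there is 1 group and the genes were chosen by name with earlier results of these data known.

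**Figure D1:**
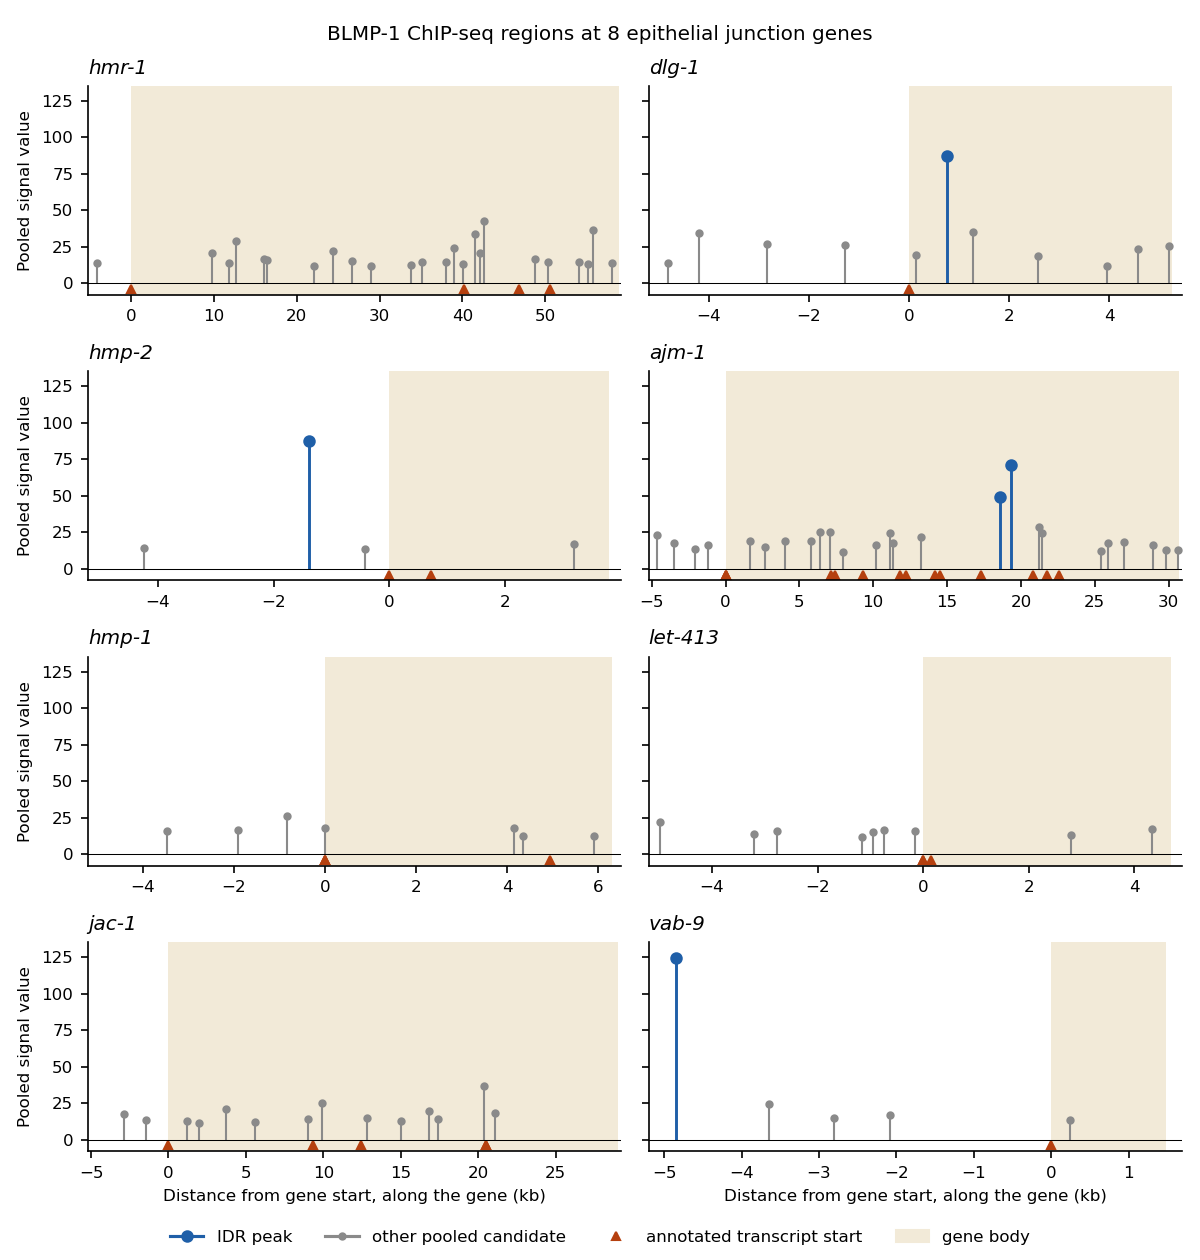
Pooled signal value (vertical axis) of every pooled candidate against distance from the gene start in kb, along each gene, with IDR peaks as blue points, other candidates as grey points, transcript starts as triangles and the gene body shaded. The blue points stand at hmp-2, dlg-1, vab-9 and, as a pair, ajm-1, between 48.8 and 124, and no grey point is above 42.5.

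The sequences below show a selection of summits: IDR peaks with and without the BLMP-1 core word, and 1 candidate each at jac-1 and let-413, which had no IDR peak. The IDR peak of hmp-2 and the strongest candidate outside the IDR list, at hmr-1, are not printed. Each is the plus strand of ce11 (WBcel235), 5′ to 3′, over 50 bp on either side of the summit, except that at vab-9 30 bases around the core word are given because the summit lies in an untranslated exon of D2085.7. Capitals mark AAGTGAAA, the core word bound by BLMP-1 and PRDM1, and GAGAGA, each searched on both strands. A core word on the minus strand reads TTTCACTT here, and GAGAGA then reads TCTCTC. No match overlaps another in these stretches. The let-413 stretch, chosen because it holds a core word without an IDR peak, is from candidate rank 21166 of the pooled list. The strongest pooled candidate at let-413 ranked 6112.
vab-9, chrII:8642579-8642608: gagtcaaatggaagAAGTGAAAagaacgag
ajm-1 stronger peak, chrX:9102219-9102319: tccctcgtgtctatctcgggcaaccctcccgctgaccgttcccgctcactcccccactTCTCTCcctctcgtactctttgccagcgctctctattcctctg
ajm-1 weaker peak, chrX:9101449-9101549: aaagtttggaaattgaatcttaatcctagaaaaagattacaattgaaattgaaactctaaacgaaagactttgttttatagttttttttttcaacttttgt
dlg-1, chrX:5480399-5480499: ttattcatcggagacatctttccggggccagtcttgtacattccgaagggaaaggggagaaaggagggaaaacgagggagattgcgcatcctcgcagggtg
jac-1, chrIV:16006410-16006510: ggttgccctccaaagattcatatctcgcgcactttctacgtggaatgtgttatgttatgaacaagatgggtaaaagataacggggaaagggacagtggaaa
let-413, chrV:7980922-7981022: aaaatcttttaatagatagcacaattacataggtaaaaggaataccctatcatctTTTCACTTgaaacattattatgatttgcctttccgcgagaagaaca

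The cadherin gene hmr-1 had no IDR peak, and its candidates were the sparsest of the 8 genes by length. hmr-1 (WBGene00001980) encodes the classical cadherin that holds neighbouring cells together, and lies at I 11075755 to 11134667 on the minus strand with 5 annotated transcripts. Its window of 63.9 kb held 24 pooled candidates, 23 of replicate 1 and 18 of replicate 2. The pooled ones came to 3.76 per 10 kb, the lowest rate of the 8, though above the 29.9 per 100 kb of all protein-coding windows. The strongest had its summit at I 11092075, with a signal of 20.9 and rank 2297 in replicate 1, 19.9 and rank 1051 in replicate 2, and 42.5 and rank 1007 in the pooled list. It fell just below the lowest IDR signal and was the highest of the 94 candidates outside the IDR list at these genes. This summit lay in intron 22 of the long transcript W02B9.1b.1, 42592 bp from that transcript's start, and 2451 bp inside the short isoform W02B9.1a.1, in its intron 1. The candidate at I 11093211, 1315 bp inside the same short isoform, had a signal of 33.6 and rank 1718 in the pooled list, 10.8 and rank 16563 in replicate 1, and 11.9 and rank 4827 in replicate 2. A core word stood near it at I 11093171 to 11093178. Another core word and a GAGAGA lay at the candidate at I 11110272, pooled rank 6410. The second strongest candidate, at I 11078928 with a pooled signal of 36.2, had no overlapping candidate in either replicate. In replicate 2 the second strongest at hmr-1 was at I 11099595, with a signal of 18.7 and rank 1284, and the pooled candidate there ranked 18435. Of the 23 summits in the body of hmr-1, 22 lay in introns, which make up 83.9% of the longest transcript. The nearest IDR summit lay 213986 bp upstream of the gene.

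Among the catenin genes, only hmp-2 had an IDR peak. hmp-2 (WBGene00001979, I 14738882 to 14742671, plus strand) encodes the beta-catenin that joins the cadherin tail to alpha-catenin. Its peak, I 14737342 to 14737657 with the summit at 14737500, had a signal of 54.5 and rank 246 in replicate 1, 32.1 and rank 308 in replicate 2, and 87.3 and rank 226 in the pooled list. Both replicates thus placed it high. The summit lay 1382 bp upstream of hmp-2 but only 202 bp upstream of K05C4.7, a protein-coding gene that lies between the peak and hmp-2 on the same strand. The data do not tell which of these genes the region belongs to. No AAGTGAAA lay within 50 bp of the summit, and neither did the other words searched, where 48.5% of bases were G or C. The other 3 pooled candidates at hmp-2 ranked 13261 or lower, and no candidate of replicate 1 overlapped 2 of them.

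hmp-1 (WBGene00001978, V 11845871 to 11852166, plus strand) encodes the alpha-catenin that connects the complex to actin, and its candidates were weak. The strongest of its 7 pooled candidates, summit V 11845035, had a signal of 9.62 and rank 20882 in replicate 1, 18.0 and rank 1425 in replicate 2, and 25.8 and rank 3802 in the pooled list. The replicates ranked it far apart. It lay 836 bp upstream of hmp-1 in the noncoding RNA gene R13H4.11, and the candidate with its summit 1 bp before the start of hmp-1 ranked 12097 in the pooled list, with no candidate in replicate 2. Replicate 2 held 2 candidates at hmp-1 in all, against 5 in replicate 1. The nearest IDR summit lay 43345 bp upstream.

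jac-1 (WBGene00002175, IV 15997835 to 16026847, minus strand) encodes the p120 catenin, which binds the cadherin's tail and modulates adhesion. The strongest of its 14 pooled candidates, summit IV 16006460, had a signal of 26.4 and rank 1126 in replicate 1, 11.2 and rank 5841 in replicate 2, and 36.8 and rank 1365 in the pooled list. It lay in intron 5 of the longest transcript and 93 bp upstream of the start of the short isoform Y105C5B.21d.1, or 103 bp upstream of Y105C5B.21h.1. The sequence given above for this site holds neither marked word. The next candidate, IV 16016964, had a pooled signal of 25.3 and rank 4052, with rank 3717 in replicate 1 and none in replicate 2. The strongest was the only 1 of the 14 that both replicates overlapped. All 12 summits in the body of jac-1 lay in introns, which make up 86.0% of its longest transcript. No IDR summit lay nearer than 471356 bp upstream.

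At dlg-1 the IDR peak stood in the first intron, and the gene had the densest candidates of the 8. dlg-1 (WBGene00001006, X 5479700 to 5484941, plus strand, 1 transcript) encodes the Discs large scaffold that clusters the basal junction complex. The peak, X 5480291 to 5480606 with the summit at 5480449, had a signal of 53.5 and rank 257 in replicate 1, 35.3 and rank 238 in replicate 2, and 86.8 and rank 231 in the pooled list. Both replicates ranked it close to its pooled place. The summit lay 749 bp into the gene, within the noncoding RNA gene C25F6.26 on the opposite strand. Neither marked word lay in the stretch printed above. The window held 11 pooled candidates, or 10.7 per 10 kb, the highest rate of the 8. The second, X 5480973 in coding exon 2, had ranks 25645 in replicate 1 and 2327 in replicate 2 and a pooled signal of 35.0. The third, X 5475504, lay 4196 bp upstream, with ranks 9347 in replicate 1 and 896 in replicate 2 and a pooled signal of 34.2. The candidate at X 5476854 held a GAGAGA and had rank 3314 in the pooled list, 2053 in replicate 1 and 14575 in replicate 2. Replicate 2 placed 2 of these 3 nearer to its top than replicate 1 did.

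ajm-1 was the only one of the 8 genes with 2 IDR peaks, 770 bp apart, deep inside the gene. ajm-1 (WBGene00000100, X 9082946 to 9113619, plus strand, 16 transcripts) encodes the coiled-coil protein that serves as the classical marker of the nematode apical junction. The stronger peak, X 9102111 to 9102426 with the summit at 9102269, had a signal of 42.3 and rank 432 in replicate 1, 23.9 and rank 622 in replicate 2, and 71.2 and rank 350 in the pooled list. The weaker, X 9101341 to 9101656 with the summit at 9101499, had 35.3 and rank 601 in replicate 1, 14.2 and rank 2919 in replicate 2, and 48.8 and rank 764 in the pooled list. The stronger was high in both replicates, while the weaker was outside the 843 strongest of replicate 2. Both summits lay in intron 11 of the longest transcript, 19323 and 18553 bp from its start, and in intron 1 of the short isoform C25A11.4h.1, 2018 and 1248 bp from its start. The stronger also lay 1493 bp upstream of another short isoform, C25A11.4i.1. The sequences differ in make-up: around the stronger summit 60.4% of bases were G or C with a GAGAGA, and around the weaker 22.8% with no marked word. The G+C share thus had its highest and lowest values among the 5 junction peaks at the pair of neighbouring summits.

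On both sides of that pair, the replicates of ajm-1 parted. Downstream, replicate 2 held candidates at X 9104235, 9105198, 9106190 and 9107778. Their signals were 18.9, 16.9, 12.6 and 10.2 and their ranks 1243, 1708, 4121 and 7543. Replicate 1 held no candidate between its summits at 9102261 and 9108370. Upstream it was the other way round. Replicate 1 held candidates at X 9090795, 9094351, 9096223, 9097930 and 9099547, the strongest at 9096223 with a signal of 21.5 and rank 2085. Replicate 2 held none between its summits at 9090254 and 9100702. In the pooled list the candidates at 9104179 and 9104393, signals 28.7 and 24.1, both overlapped the replicate 2 region at 9104235, so they are not independent of each other. Elsewhere in the ajm-1 window, the pooled candidates had signals of 25.2 or less.

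**Figure D2:**
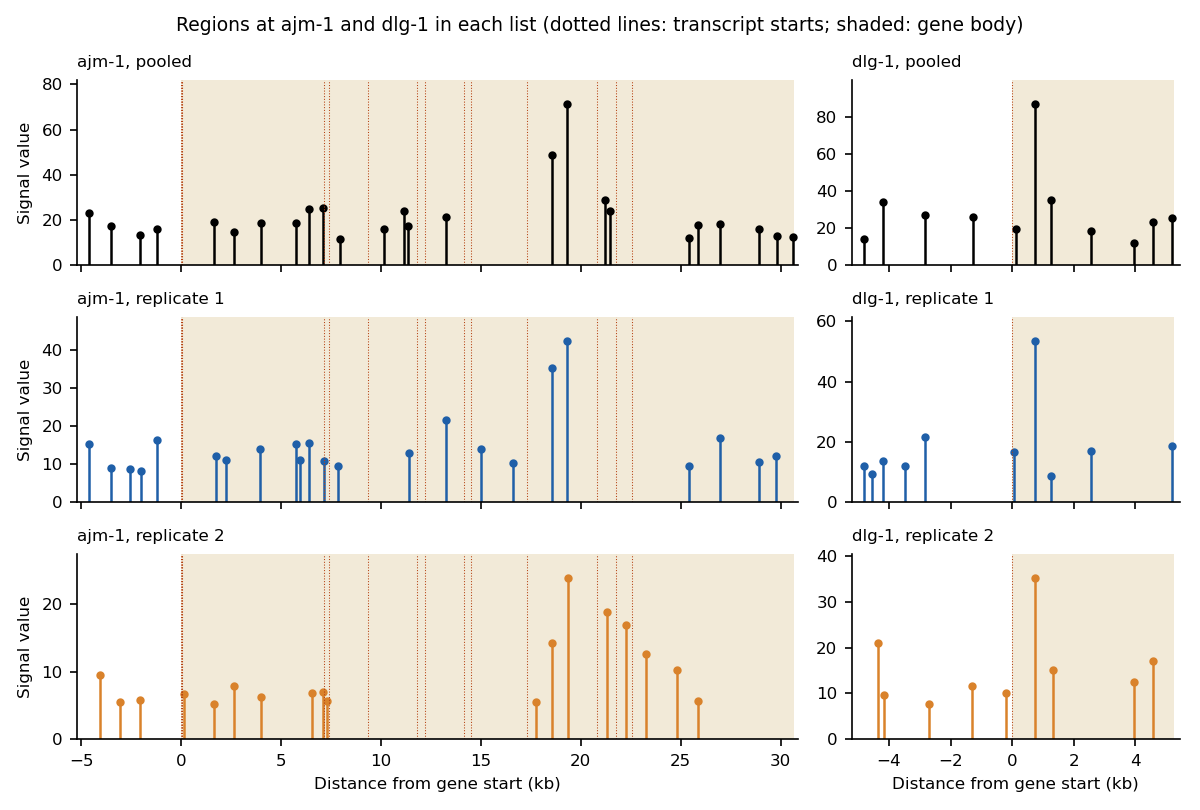
Signal value (vertical axis) of every candidate at ajm-1 (left) and dlg-1 (right) against distance from the gene start in kb, in the pooled list, replicate 1 and replicate 2 from top to bottom, each on its own vertical scale. The IDR peak stands highest in all 3 lists for dlg-1 (86.8, 53.5 and 35.3). At ajm-1 replicate 2, unlike replicate 1, shows 4 further candidates just past the pair. A stretch before the pair holds candidates of replicate 1 and none of replicate 2.

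let-413 encodes the Scribble-related leucine-rich repeat and PDZ protein of the basolateral membrane, and had no IDR peak. let-413 (WBGene00002632) lies at V 7973078 to 7977776 on the minus strand with 6 transcripts, and its window held 9 pooled candidates. The strongest, V 7982764, had a signal of 10.1 and rank 18944 in replicate 1, 15.8 and rank 2099 in replicate 2, and 22.2 and rank 6112 in the pooled list. It lay 4988 bp upstream of let-413 and in a coding exon of natb-1. The gene entered the count of replicate 2 through another region, V 7980708, 2932 bp upstream, with a signal of 24.6 and rank 583. That region overlapped 2 pooled candidates, 7980552 at rank 15157 and 7980972 at rank 21166. Replicate 1 had a candidate at the second of these only, with a signal of 15.8 and rank 5930, and the core word at V 7980977 to 7980984, on the minus strand, was centred 8 bp from the pooled summit. The replicate 2 summit lay 264 bp from that pooled summit and the replicate 1 summit 12 bp from it, so the regions overlapped only at their edges and need not mark the same site. The core word was near the pooled and replicate 1 summits and not near that of replicate 2. The nearest IDR summit lay 23571 bp upstream of let-413.

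The strongest region of all 8 genes was assigned to vab-9 but lay inside another gene. vab-9 (WBGene00006875, II 8636233 to 8637715, minus strand, 1 transcript) encodes a claudin-like membrane protein of the cadherin junction. The IDR peak, II 8642528 to 8642615, had its summit at 8642558, with a signal of 75.6 and rank 125 in replicate 1, 46.9 and rank 137 in replicate 2, and 124 and rank 112 in the pooled list. Both replicates ranked it above every other region at the junction genes. The peak was 88 bp wide, where the median IDR peak was 316.0 bp wide. Its summit lay 4843 bp upstream of vab-9 and 1177 bp downstream of the start of D2085.7, which runs the other way on the plus strand from II 8641381 to 8648227, in an untranslated exon. Inside the peak, positions II 8642593 to 8642600 held the core word, whose centre was 38 bp away from the summit. A weaker candidate, II 8641362 with a pooled signal of 24.6 and rank 4408, lay 19 bp upstream of D2085.7, with rank 2524 in replicate 1 and none in replicate 2. The remaining 3 pooled candidates ranked 13732 or lower.

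**Figure D3:**
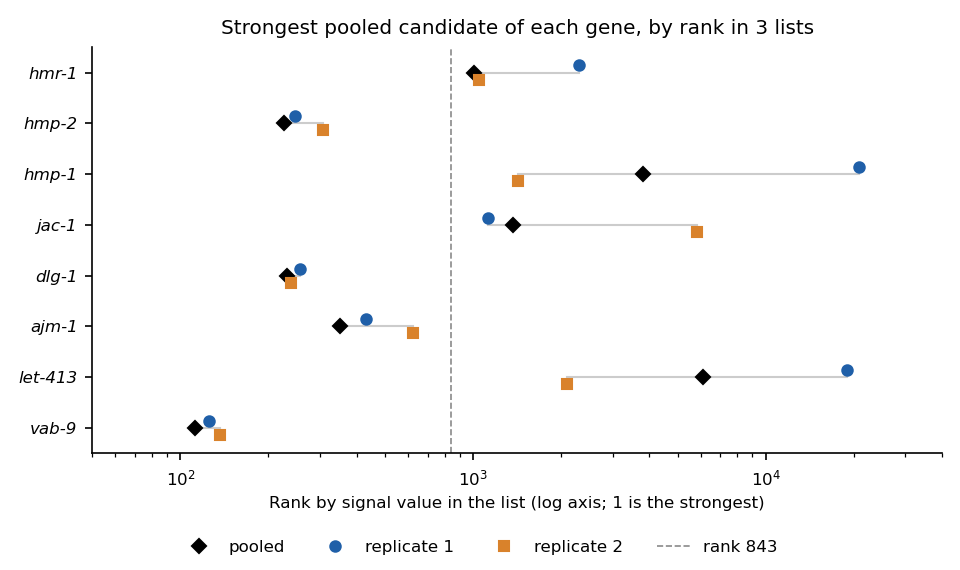
Rank by signal value (horizontal log axis, 1 is the strongest) of each gene's strongest pooled candidate in the pooled list (diamonds), replicate 1 (circles) and replicate 2 (squares), with a dashed line at rank 843. hmp-2, dlg-1, ajm-1 and vab-9 lie left of the line in all 3 lists, with the widest at ajm-1 between 350 and 622, and hmr-1, hmp-1, jac-1 and let-413 lie right of it.

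The 4 genes without an IDR peak had no IDR peak just beyond the window either. The first pooled summit beyond the 5000 bp edge lay 6718 bp upstream of hmr-1 with a signal of 14.5, 9370 bp upstream of hmp-1 with 14.5, 5104 bp upstream of jac-1 with 24.7 and 6044 bp upstream of let-413 with 35.5, all below the IDR list. Just inside the edge stood the IDR peak of vab-9 at 4843 bp and the let-413 candidate at 4988 bp. Where the upstream stretch was stopped at the nearest other protein-coding gene, 2 of the 8 genes, ajm-1 and dlg-1, had an IDR summit, against 4.11% of all protein-coding genes. With the gene body alone, the same 2 genes had one, against 1.19% of all. The hmp-2 and vab-9 peaks therefore enter only through the upstream stretch that reaches past a neighbour.

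Long windows hold more regions, and 3 of the junction genes have long ones. Across all protein-coding genes, windows of up to 10 kb held 1.93 pooled candidates on average, those of 10 to 20 kb 4.12 and longer ones 9.13, while the 3 longest junction windows held 21.0 on average. Windows ranged from 6.48 to 63.9 kb with a median of 10.8 kb for the 8 genes, against a median of 7.03 kb for all protein-coding genes. Of the 3 with windows up to 10 kb (hmp-2, let-413 and vab-9), 2 had an IDR summit, against 5.29% of such genes in all. Of the 2 with windows of 10 to 20 kb (hmp-1 and dlg-1), 1 did, against 10.1% of all. Of the 3 longer ones (hmr-1, jac-1 and ajm-1), 1 did, against 17.3% of all. Counted per length, the 8 windows held 2.78 IDR summits and 55.0 pooled candidates per 100 kb, against 0.831 and 29.9 in all protein-coding windows. The 2 replicates differed: 51.1 candidates of replicate 1 and 38.9 of replicate 2 per 100 kb stood in the junction windows, against 30.0 and 30.4 in all windows. With 8 genes these are descriptions.

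The replicates shared the pooled candidates at the junction genes about as often as pooled candidates elsewhere. A candidate of both replicates overlapped 28 of the 99, which is 28.3% (95% exact Clopper-Pearson interval 19.7 to 38.2, which covers counting only), against 26.2% of all pooled candidates. Of the rest, 58 (58.6%) were overlapped by 1 replicate and 13 (13.1%) by neither, against 57.9% and 15.9% of all pooled candidates. All 5 IDR peaks were overlapped by both, against 96.0% of all IDR peaks. Among the 94 candidates below the IDR list, 23 were, which is 24.5%, against 24.2% of all such candidates. Summits of the 5 peaks lay at most 37 bp from the summit of the replicate region they overlapped. Their median signal was 86.8, with a range of 48.8 to 124, against 64.7 over all IDR peaks, while the candidates below the list had a median of 16.4, against 16.0 over all of that kind.

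**Figure D4:**
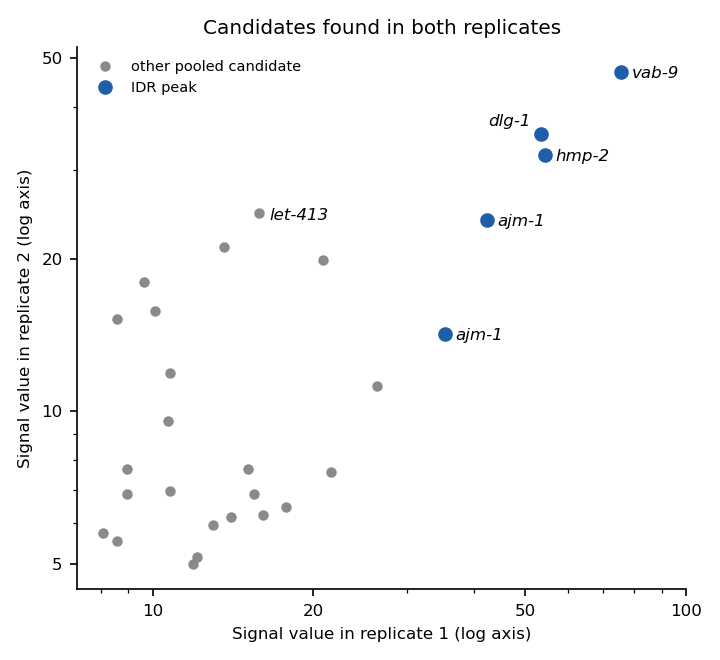
Signal value in replicate 2 (vertical log axis) against replicate 1 (horizontal log axis) for the pooled candidates at the 8 genes that both replicates overlapped, with IDR peaks in blue and other candidates in grey. The 5 IDR peaks lie at the highest values of replicate 1, from 35.3 to 75.6, and let-413 stands at 24.6 in replicate 2, where its summit is 264 bp from the pooled one, above the other grey points and both ajm-1 peaks.

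Most pooled summits at the junction genes lay in introns. Of the 99 pooled summits, 57 lay in introns, 29 upstream, 7 in coding exons and 6 in untranslated exons, and 8 lay in noncoding RNA genes. Of the 70 summits in gene bodies, 81.4% lay in introns, which make up 76.9% of the bodies' length. Within 200 bp of an annotated transcript start of the same junction gene lay 6 of the 99, and within 200 bp of the start of the whole gene 3. By a wider rule that counts every protein-coding gene at the summit, 54.5% of the 99 lay in introns, against 40.5% of the 27461 pooled candidates in all protein-coding windows. By that rule coding exons held 11.1%, against 13.2%, and untranslated exons 9.09%, against 7.20%. Outside protein-coding genes lay 25.3%, against 39.1%. Some transcript start lay within 200 bp of 7.07%, against 13.4%, and 8.08% lay in noncoding RNA genes, against 1.95%. These shares were not tested, and the longest of the 8 genes hold most of the summits. Of the 5 IDR peaks, 3 lay in introns, at dlg-1 and ajm-1, and 2 upstream, at hmp-2 and vab-9.

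Short words were searched at these summits, and few of the regions held one. AAGTGAAA lay within 50 bp of 4 of the 99 summits, which is 4.04%, against 2.23% of all pooled candidates, and these 4 were a pair at hmr-1, 1 at let-413 and 1 at vab-9. Among the 5 IDR peaks 1 had it, at vab-9, against 15.5% of all IDR peaks. GAGAGA lay at 8 of the 99, against 7.67% of all pooled candidates, and at 1 of the 5 IDR peaks, the stronger at ajm-1, against 30.6% of all IDR peaks. TGATAA, which resembles the site of the intestinal and epidermal zinc finger factors of the ELT family, lay at 6 of the 99, against 9.87% of all pooled candidates, and at none of the 5, against 7.95% of all IDR peaks. Thus 3 of the 5 junction peaks, at hmp-2, dlg-1 and the weaker ajm-1 summit, had none of the 3 words. A match is a run of letters and no evidence of binding, and a missing match says only that these letters are not in the stretch searched.

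Other genes of epithelial adhesion and polarity, 36 in a list drawn up by function, had IDR summits at 9, against the 6.22% of all protein-coding genes given above. Most of the 36 windows were longer than 10 kb, so that share is not matched for length. Among all protein-coding genes, 10.1% of windows of 10 to 20 kb and 17.3% of longer ones held an IDR summit. A pooled candidate lay at 35 of the 36, the exception being the claudin-like gene clc-4. Among the polarity and membrane genes, che-14, whose product acts in apical secretion, had the strongest peak, 30 bp upstream of its start with a core word, with signals of 87.3 in replicate 1, 82.9 in replicate 2 and 165 pooled. par-3, an apical polarity scaffold, had a peak 1201 bp into the gene, with 117 in replicate 1, 48.9 in replicate 2 and 155 pooled. erm-1, the ezrin-radixin-moesin linker of membrane to actin, had 2 peaks, of pooled signal 79.9 and 71.0, at 3824 and 4996 bp upstream. The first ranked 258 in replicate 1 and 348 in replicate 2. The second, nearer to hpo-32, ranked 700 in replicate 1 and 197 in replicate 2. The pooled signals of che-14, par-3 and erm-1 stood in the range of the junction genes' own peaks or above it.

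Among the junction scaffold and cytoskeletal genes, spc-1 for alpha-spectrin had a peak 988 bp upstream, with 69.9 in replicate 1, 50.8 in replicate 2 and 124 pooled. afd-1, the afadin gene, had one 20147 bp into the gene with a GAGAGA, with 55.5 in replicate 1, 32.5 in replicate 2 and 86.2 pooled. tes-1, for a testin-like protein of the junction, had one 3586 bp upstream, with 43.8 in replicate 1, 44.2 in replicate 2 and 85.0 pooled. Its nearest protein-coding start was that of F13B6.1. For 2 genes the replicates ranked the peak apart: deb-1, for vinculin, had 42.3 in replicate 1 and 13.9, rank 3102, in replicate 2 (68.8 pooled), and magi-1, a PDZ scaffold with a core word at its peak, had 24.5, rank 1402, in replicate 1 and 29.2, rank 393, in replicate 2 (63.9 pooled). The ninth, sma-1 for a heavy-chain beta spectrin, had a pooled signal of 50.5, 188 bp upstream. The other cadherin genes in the list, cdh-1, cdh-3, cdh-4 and fmi-1, had no IDR summit, as hmr-1 had none. Only 6.22% of all protein-coding genes had one, so this absence does not set the cadherin genes apart. The other cadherin genes, clc-4 and sma-1 were named after their values were seen.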

How the data were processed

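BLMP-1 ChIP-seq was measured in 2 samples of 1 group. The data are 4 peak lists on ce11, deposited in narrowPeak form: the optimal IDR list, the pooled candidates and those of each replicate. The signal value is a score that the authors deposited, of unstated scale, and the other column used is the deposited summit offset in bp. Which aligner, caller of peaks and IDR cutoff were used is not given in the sources used here. Lists on ce10 were left out, as no annotation of that build was at hand, and the read depth is unknown.

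Summits were placed on Ensembl release 115 (WBcel235) with Python 3.11.15, pandas 2.3.3 and numpy 2.4.6. Sequences were read from the RefSeq genome of the same build, and intervals come from scipy 1.17.1. Regions overlapped at 1 bp or more, and where a candidate met several of a replicate, the strongest was taken. Summits on the mitochondrial genome were left out. Positions are 1-based. Ranks run over a whole list. The counting of summits and words was tested on simulated data. No test was made.

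Members and lists were chosen with earlier results of these data known. All 8 genes are named, and of the related genes up to 8 with an IDR summit, by signal, with neighbours whose start is nearest to a summit. Alternatives covered the window, the list, the overlap, the words and each replicate alone.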

Additional observations from a re-analysis of the deposited data

How the results depend on the processing

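The counts depended most on the upstream stretch. Stopping it at the nearest other protein-coding gene left 2 junction genes and 3 summits with an IDR peak in place of 4 and 5. Using the gene body alone also left 2 genes and 3 summits, and left 3 of the 36 related genes in place of 9. Shorter windows hold fewer positions by construction. With summits required to lie within 100 bp of each other, both replicates shared 18.2% of the pooled candidates at the junction genes in place of 28.3%, a stricter rule by construction, which left 13.8% of all pooled candidates in place of 26.2%. With each replicate's own 843 strongest candidates in place of the IDR list, which stands for leaving out the other replicate, 4 to 5 junction genes and 5 to 5 summits were found, and 10 to 11 related genes. Of the 35 values recomputed, 29 stayed within 1.5 times the count or within the interval of the share. Limits are that the possible control was not analysed here, that the files give no read counts, that there is 1 group of 2 samples, and that several genes can share a summit.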

Other observations

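Core words were not rare in the windows of the junction genes, and most lay away from any candidate. The 8 windows held 30 copies of AAGTGAAA on either strand, or 1.67 per 10 kb, and 4 of the 30 (13.3%) lay within 50 bp of a pooled summit. All protein-coding windows held 12551 copies, or 1.37 per 10 kb, of which 4.99% did. The junction windows held 55.0 pooled candidates per 100 kb, against 29.9 in all windows, so these shares are not matched for the density of summits. By median, the G+C share around the summits was higher at IDR peaks than at weaker candidates. It was 48.5% at the 5 junction IDR peaks and 33.7% at the 94 weaker junction candidates. Over the whole list it was 43.6% at all IDR peaks and 31.7% at all weaker candidates. The 5 junction peaks ranged from 22.8% to 60.4%, and the strongest of them, at vab-9, had 28.7%. These are descriptions with no test.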
